A study of Mus musculus with 9 samples.

Results

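The genes described here encode 10 receptors and ligands through which T cells are costimulated or held back: Cd28, Icos, Ctla4, Pdcd1, Btla, Lag3, Cd27, Tnfrsf4, Tnfrsf9 and Cd40lg. They were taken by symbol from a table of 20926 genes, and all 10 were present in it and passed the filter on low values. RNA from mouse blood was sequenced in 9 libraries, 3 in each of 3 groups of male DBA/1 mice. The labels give an age of 7 weeks, which the paper states for the mice at grouping. The arthritis and irradiation came after that age, and the age at blood collection is not stated. The Ctrl group was neither arthritic nor irradiated. The CIA group had collagen-induced arthritis, a model of rheumatoid arthritis raised by injecting chick type II collagen in complete Freund's adjuvant, followed by a booster in incomplete adjuvant. The CIA+THz group had the same arthritis, and its swollen ankle joints were exposed to a 0.1 THz source for 30 min per day over 14 days under isoflurane, an anaesthetic whose use is not stated for the other groups. CIA and CIA+THz mice therefore shared the collagen and adjuvant, and only the irradiated group is stated to have been anaesthetised repeatedly. The labels do not say how many animals went into a library, so the tests measure the spread between libraries.

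A T cell responds fully to antigen only when its antigen receptor signal is joined by a costimulatory signal from the antigen-presenting cell. CD28 gives this signal by binding CD80 and CD86, CTLA-4 competes for the same ligands and restrains the cell, and ICOS, PD-1, BTLA and LAG-3 adjust the response later or in other settings. The TNF receptor family members CD27, OX40 (Tnfrsf4) and 4-1BB (Tnfrsf9) sustain activated T cells, while CD40 ligand on helper T cells activates B cells and myeloid cells through CD40. In rheumatoid arthritis the CD28 pathway is the target of a CTLA-4 fusion protein used in treatment.

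In the blood of CIA mice, the transcripts of Cd28, Cd40lg and Tnfrsf4 fell against Ctrl, to 0.437, 0.394 and 0.308 of the Ctrl mean, respectively. In CIA+THz mice, Cd28, Cd40lg and Btla rose against CIA, to 1.60, 2.42 and 1.60 times the CIA mean. Icos, Ctla4, Pdcd1, Tnfrsf9, Cd27 and Lag3 did not pass the criterion in any pair of groups. These values are rescaled FPKM, that is, fragments scaled by transcript length and library total as deposited, divided by 1 factor per library. A gene was called between 2 groups when limma gave an unadjusted p under 0.05 and a log2 fold change beyond 0.67 in either direction, which is the study's own criterion. Each log2 fold change was fitted on log2(rescaled FPKM + 0.1), so that low genes look less changed than they were. Cd28, Cd40lg and Btla are among the genes the study named from these same libraries, so their calls are not independent of that choice.

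**Figure D1:**
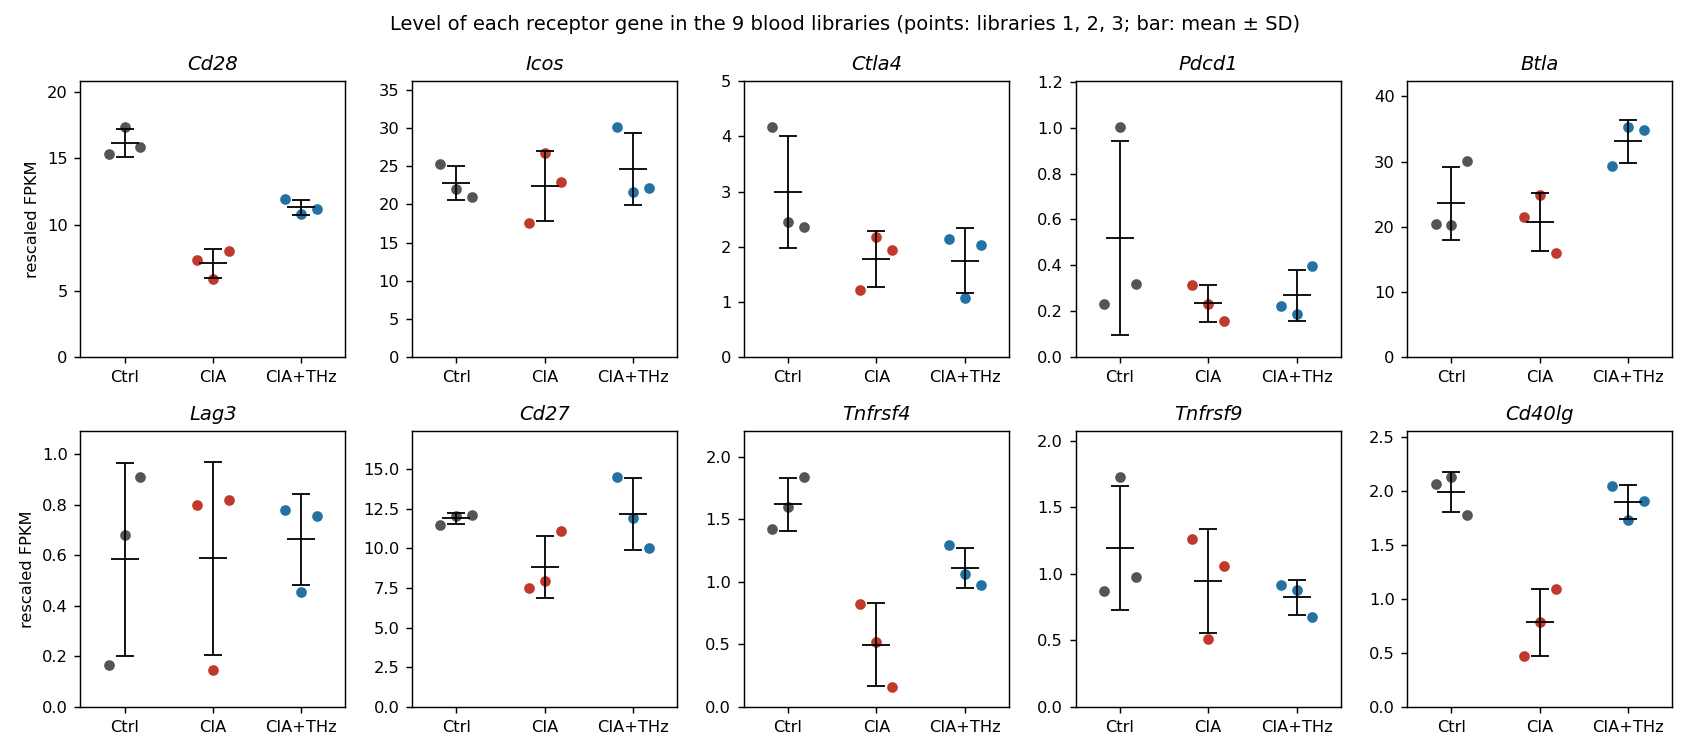
Rescaled FPKM of each of the 10 genes (vertical axis, linear from 0, a scale per panel) in the 3 Ctrl, 3 CIA and 3 CIA+THz libraries; points are libraries 1, 2 and 3 from left to right and bars are the mean ± SD (n = 3). The Cd28 and Cd40lg points of CIA lie below those of both other groups, from 5.91 to 7.99 and from 0.473 to 1.10, while Icos, Pdcd1, Tnfrsf9 and Lag3 overlap in every pair of groups.

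The libraries differed in ways that touch these genes. The relative depth was read from the most frequent ratio of low FPKM values between pairs of libraries. It lay between 1 and 1.28 in the Ctrl and CIA libraries and between 1.35 and 1.87 in the CIA+THz libraries. The deepest group was therefore the irradiated one. The absolute depth is not known from FPKM, and no counting interval is given. The samples are labelled as blood leukocyte, whereas the extraction is described for total blood. Alas2, an enzyme of haem synthesis in red cell precursors, alone made up a large part of the FPKM total per library. This share was 14.4% to 16.6% in Ctrl, 16.3% to 16.7% in CIA and 11.4% to 14.0% in CIA+THz. The CIA+THz shares thus lay below those of all other libraries. In bulk RNA, fewer cells of a type and less RNA per cell cannot be told apart.

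The 10 genes covered a wide range of levels. In Ctrl, the order of the mean rescaled FPKM was Btla, Icos, Cd28, Cd27, Ctla4, Cd40lg, Tnfrsf4, Tnfrsf9, Lag3 and Pdcd1. Btla and Icos overlapped at the top, Cd28, Cd27 and Ctla4 each stood apart from the next gene, and the ranges of neighbours from Cd40lg downwards overlapped. Among the CIA libraries, Cd28 stood below Cd27 on average, with overlapping ranges, and Tnfrsf4 and Cd40lg stood below Tnfrsf9. Among the CIA+THz libraries, Btla and Icos again led, Cd27 and Cd28 overlapped, and Cd40lg and Ctla4 overlapped below them. The sum over the 10 genes was between 81.3 and 87.2 in Ctrl, between 58.7 and 69.8 in CIA and between 84.9 and 93.2 in CIA+THz, so that the CIA libraries lay below all others.

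Cd28, Ctla4 and Icos are consecutive genes of mouse chromosome 1, at chr1:60716800-60773359, chr1:60887000-60915832 and chr1:60977927-61000320 of GRCm38. The gap between Cd28 and Ctla4 is 113640 bases and that between Ctla4 and Icos 62094 bases. The rescaled FPKM of Cd28, the receptor of the primary costimulatory signal, was 15.3, 17.4 and 15.8 in the Ctrl libraries, 7.32, 5.91 and 7.99 in the CIA libraries and 11.9, 10.8 and 11.2 in the CIA+THz libraries. The 3 groups did not overlap, with every CIA library lowest and every CIA+THz library between CIA and Ctrl. The Ctrl mean was 16.2 ± 1.06 (SD, n = 3), the CIA mean 7.07 ± 1.06 and the CIA+THz mean 11.3 ± 0.563. The fall in CIA had a log2 fold change of -1.19 with an SE of 0.17 (limma, adjusted p = 0.0554). The rise from CIA to CIA+THz was 0.68 with an SE of 0.15 (adjusted p = 0.210). The size of this second difference lay close to the fold limit, and without CIA library 2 or without CIA+THz library 1 it was 0.56 and 0.64, short of the limit. Against Ctrl, CIA+THz remained lower by a log2 fold change of -0.51 (adjusted p = 0.125), which is within the fold limit. Cd28 was the only one of the 10 genes with an adjusted p under 0.05 across the 3 groups, at 0.0127 by limma's moderated F-test.

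Icos and Ctla4, the neighbours of Cd28, did not share its pattern. Icos, a costimulator of activated and follicular helper T cells, was measured at 25.3, 22.0 and 20.96 in Ctrl, 17.5, 26.7 and 23.0 in CIA and 30.1, 21.6 and 22.2 in CIA+THz. The highest and the lowest Icos values both came from arthritic mice, and all pairs of groups overlapped. The 95% interval of the log2 fold change ran from -0.46 to 0.38 in CIA against Ctrl and from -0.33 to 0.61 in CIA+THz against CIA. Ctla4, the inhibitory competitor of CD28, was measured at 4.17, 2.45 and 2.36 in Ctrl, 1.21, 2.18 and 1.95 in CIA and 2.15, 1.07 and 2.03 in CIA+THz. Every Ctrl value of Ctla4 lay above every value of the other groups, narrowly for Ctrl libraries 2 and 3. Its log2 fold change was -0.71 in CIA against Ctrl (adjusted p = 0.359) and -0.76 in CIA+THz against Ctrl (adjusted p = 0.331), and neither passed the unadjusted criterion. Between the arthritic groups it was -0.05, with an interval from -0.93 to 0.84.

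Pdcd1 (PD-1), an inhibitory receptor at chr1:94038305-94052553, was the lowest of the 10 genes. Its rescaled FPKM was 0.233, 1.00 and 0.317 in Ctrl, 0.315, 0.233 and 0.156 in CIA and 0.224, 0.186 and 0.397 in CIA+THz. Ctrl library 2 was far above the other 8, which overlapped across the groups. Lag3, an inhibitory receptor that binds MHC class II and lies next to Cd4 at chr6:124904361-124911705, was measured at 0.164, 0.678 and 0.911 in Ctrl, 0.798, 0.147 and 0.819 in CIA and 0.779, 0.455 and 0.756 in CIA+THz. A low value occurred in Ctrl and in CIA. The interval of the Lag3 difference in CIA against Ctrl ran from -1.78 to 1.76. Differences of either sign within this range were therefore not excluded for this gene. For Pdcd1 the interval ran from -2.12 to 0.71 in the same comparison.

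Btla, at chr16:45224315-45257670, encodes an inhibitory receptor of B cells and T cells that binds HVEM (Tnfrsf14). It was measured at 20.5, 20.2 and 30.1 in Ctrl, 21.5, 24.8 and 15.9 in CIA and 29.3, 35.3 and 34.8 in CIA+THz. All 3 CIA+THz libraries lay above all CIA libraries, whereas Ctrl library 3 reached into the CIA+THz range. The Ctrl mean was 23.6 ± 5.63, the CIA mean 20.7 ± 4.50 and the CIA+THz mean 33.1 ± 3.32 (SD, n = 3). The log2 fold change of CIA+THz against CIA was 0.69 with an SE of 0.18 (limma, adjusted p = 0.236). It fell short of the fold limit without CIA library 3, CIA+THz library 2 or CIA+THz library 3, at 0.51, 0.64 and 0.65. The Btla difference was -0.18 in CIA against Ctrl (adjusted p = 0.712) and 0.51 in CIA+THz against Ctrl (adjusted p = 0.205). The second lay within the fold limit, and without Ctrl library 3 it was 0.69 and passed. The summed level of 9 B cell marker genes ranged over 468 to 556 for Ctrl, 511 to 650 for CIA and 605 to 786 for CIA+THz. In CIA+THz against CIA, 0 of the 9 were called by limma. Of their log2 fold changes there, 8 were above 0 and 1 below, with a median of 0.29. The part of these genes in the Btla result was not tested.

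Of the TNF receptor family, Cd27, at chr6:125232622-125237010, is carried by naive and memory T cells, among other cells. It was measured at 11.5, 12.1 and 12.1 in Ctrl, 7.50, 7.94 and 11.1 in CIA and 14.5, 11.9 and 10.05 in CIA+THz. The CIA libraries lay below the Ctrl libraries, with CIA library 3 close to them, and CIA and CIA+THz overlapped. The log2 fold change of CIA against Ctrl was -0.45 (adjusted p = 0.284), within the fold limit, and that of CIA+THz against CIA was 0.46 (adjusted p = 0.402). Tnfrsf9 (4-1BB), at chr4:150914562-150946102, was 0.873, 1.73 and 0.976 in Ctrl, 1.26, 0.509 and 1.06 in CIA and 0.915, 0.879 and 0.674 in CIA+THz. Its groups overlapped in every pair, and its adjusted p lay between 0.580 and 0.938 over the 3 comparisons by limma. Tnfrsf9 overlaps Camta1 in the annotation, and the strand setting behind the FPKM is not given in the sources used here, so reads of the pair could be split.

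Tnfrsf4 (OX40), at chr4:156013843-156016612, is induced on activated T cells and is also carried by regulatory T cells. Its rescaled FPKM was 1.42, 1.60 and 1.84 in Ctrl, 0.819, 0.515 and 0.160 in CIA and 1.29, 1.06 and 0.977 in CIA+THz. The groups did not overlap, with the CIA libraries lowest and spread over a wide range. The Ctrl mean was 1.62 ± 0.211, the CIA mean 0.498 ± 0.330 and the CIA+THz mean 1.11 ± 0.162 (SD, n = 3). Tnfrsf4 fell in CIA against Ctrl with a log2 fold change of -1.70 and an SE of 0.53 (limma, adjusted p = 0.191). Without Ctrl library 3 the change was -1.61 and its unadjusted p no longer passed. The difference of CIA+THz from CIA was 1.19 with an SE of 0.51 (adjusted p = 0.387) and its 95% interval ran from -0.03 to 2.40, so that it did not pass, although it passed without CIA library 1 (1.59). It also passed as deposited (1.44), with a GC content correction chosen after seeing the data (1.25), and at 1.19 with no trend, with all 9 libraries in 1 fit and with the replicate number as a block. Tnfrsf18, the next gene on the chromosome and a costimulatory receptor of the same family, had a log2 fold change of -0.45 in CIA against Ctrl (adjusted p = 0.375) and of 0.52 in CIA+THz against CIA (adjusted p = 0.422).

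Cd40lg, at chrX:57212143-57224042, encodes the helper T cell ligand of CD40. Its rescaled FPKM was 2.06, 2.13 and 1.78 in Ctrl, 0.473, 0.786 and 1.10 in CIA and 2.05, 1.74 and 1.90 in CIA+THz. Every CIA library lay below every other library, and Ctrl and CIA+THz overlapped. The Ctrl mean was 1.99 ± 0.186, the CIA mean 0.785 ± 0.312 and the CIA+THz mean 1.90 ± 0.157 (SD, n = 3). The log2 fold change was -1.30 with an SE of 0.39 in CIA against Ctrl (limma, adjusted p = 0.176) and 1.23 with an SE of 0.35 in CIA+THz against CIA (adjusted p = 0.259). The interval of CIA+THz against Ctrl ran from -0.64 to 0.51 around -0.07. Both calls of Cd40lg held in 6 of 6 fits that left out a library.

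Of the 4 genes called in any comparison, Tnfrsf4 and Btla have a start site in the RefSeq promoter table (GRCm38.p6), and the sequences of both are shown because the results turn on these genes. The 250 bases before the start are given 5′ to 3′, at chr4:156013445-156013694 and chr16:45224087-45224336, both on the plus strand. Capitals mark GGAAA or its reverse complement TTTCC, the core bound by NFAT, a factor switched on by the antigen receptor.
Tnfrsf4: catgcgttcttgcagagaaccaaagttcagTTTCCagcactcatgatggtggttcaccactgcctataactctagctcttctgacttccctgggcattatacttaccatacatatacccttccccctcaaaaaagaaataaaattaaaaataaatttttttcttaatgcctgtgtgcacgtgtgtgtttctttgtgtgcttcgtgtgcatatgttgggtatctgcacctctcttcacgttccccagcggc
Btla: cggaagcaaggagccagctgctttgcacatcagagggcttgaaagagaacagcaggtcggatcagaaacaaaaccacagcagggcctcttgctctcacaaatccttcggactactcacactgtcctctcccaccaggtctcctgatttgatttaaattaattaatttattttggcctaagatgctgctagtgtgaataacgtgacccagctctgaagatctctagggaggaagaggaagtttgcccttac
The Tnfrsf4 window held 1 such core and the Btla window 0. This core occurred in 55.6% of the 32851 promoter windows of the table, searched on both strands. The AP-1 motif TGANTCA and the ETS motif CCGGAAG (reverse CTTCCGG) were in neither window and occurred in 6.75% and 6.91% of all windows.

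All 10 genes had a fitted difference below 0 in CIA against Ctrl, with a median log2 fold change of -0.58 beside -0.01 for all 12366 genes tested. Of the 10, 3 were called lower and 0 higher, while 4.25% of all genes tested were called lower and 4.79% higher. The CIA and Ctrl libraries did not overlap for 5 of the 10, each lower in CIA, beside 11.8% of all genes that were lower without overlap. From CIA to CIA+THz, 8 of the 10 differences were above 0 and the median was 0.40, beside 0.03 for all genes. Of the 10, 3 were called higher and 0 lower, while 2.94% of all genes were called higher and 1.6% lower. The groups did not overlap for 4 of the 10, each higher in CIA+THz, beside 9.38% of all genes that were higher without overlap. Between CIA+THz and Ctrl, 0 of the 10 were called by limma, beside 7.88% of all genes (4.64% higher and 3.24% lower). Cd28 and Btla, 2 of the 10, had an unadjusted p under 0.05 there, beside 18.1% of all genes, and Cd28, Ctla4 and Tnfrsf4, 3 of the 10, were lower without overlap, beside 12% of all genes. CIA against Ctrl and CIA+THz against CIA use the same CIA libraries, so a low value in CIA enters both.

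**Figure D2:**
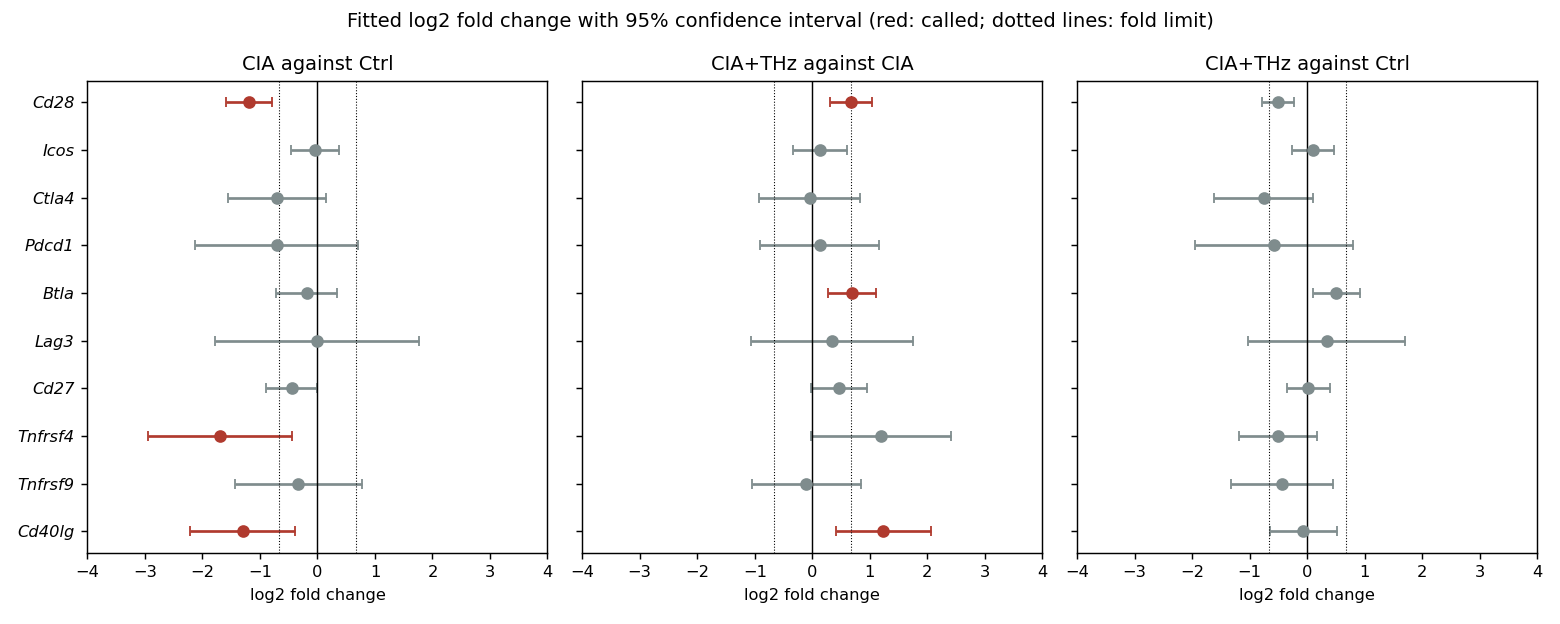
Log2 fold change (horizontal axis) of each gene in the 3 comparisons, with points for the limma estimate and bars for its 95% confidence interval; red marks genes called, and dotted lines mark the fold limit of 0.67. The intervals of Lag3 and Pdcd1 are wide in all 3 panels, and Cd40lg moves from -1.30 to 1.23 between the first and second panels.

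With an adjusted p under 0.05 as the criterion, 0.154% of all genes passed for CIA against Ctrl, 0.105% for CIA+THz against Ctrl and 0 genes for CIA+THz against CIA by limma, and none of the 10 did, while 13.2% of all genes (1634) had an unadjusted p under 0.05 in the last comparison. Across the 3 groups, 4 of the 10 genes had an unadjusted p under 0.05 in the F-test, namely Cd28, Cd40lg (adjusted p = 0.0883), Tnfrsf4 (adjusted p = 0.129) and Btla (adjusted p = 0.136), beside 21.3% of all genes. The adjusted p was under 0.05 for 1 of the 10, beside 2.53% of all genes.

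The T cell genes had differences of the same sign as most of the receptors. Trac, Trbc1 and Trbc2 belonged to the planned list but had no row under these symbols in the deposited data, so they were not analysed. The geometric mean of 8 pan T cell genes (Cd3d, Cd3e, Cd3g, Cd5, Cd6, Cd4, Cd8a and Cd8b1) was 33.6, 40.7 and 40.1 in Ctrl, 33.4, 28.8 and 30.5 in CIA and 47.2, 39.4 and 34.9 in CIA+THz. All 8 had differences below 0 in CIA against Ctrl, with 0 called by limma, and above 0 in CIA+THz against CIA, with Cd5 called (0.79). Cd5 was not called without CIA library 2 (0.66) or CIA+THz library 1 (0.58). Expressed as a share of this T cell level in the same library, Cd28 stood at 42.6% ± 3.05 for Ctrl, 22.9% ± 2.97 for CIA and 28.2% ± 3.50 for CIA+THz (SD, n = 3). The CIA shares of Cd28 lay below all Ctrl shares and overlapped the CIA+THz shares. The share of Cd40lg was 5.27% ± 0.846, 2.58% ± 1.10 and 4.73% ± 0.620 in the same order, and the CIA shares lay below both other groups without overlap. The share of Tnfrsf4 was 4.24% ± 0.326, 1.59% ± 0.978 and 2.74% ± 0.0476, and again the CIA shares did not overlap the others. Btla overlapped between all groups on this scale.

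When every library was scaled to its pan T cell genes, Cd28, Cd40lg and Tnfrsf4 were still called lower in CIA against Ctrl, with log2 fold changes of -0.89, -1.03 and -1.45 by limma, beside 14.5% of all genes called in either direction on this scale. None of the 10 genes was called on it in CIA+THz against CIA, beside 12.4% of all genes. The log2 fold change of Cd40lg was 0.89 (adjusted p = 0.233), that of Tnfrsf4 0.87 (adjusted p = 0.343), that of Btla 0.31 (adjusted p = 0.486) and that of Cd28 0.30 (adjusted p = 0.383). This scaling moved the median of all genes to 0.28 in the first comparison and to -0.33 in the second. A correction for GC content, added after the data were seen, also ended the calls of Cd28 (0.51) and Btla (0.52) in CIA+THz against CIA, while Cd40lg (1.14) stayed called.

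**Figure D3:**
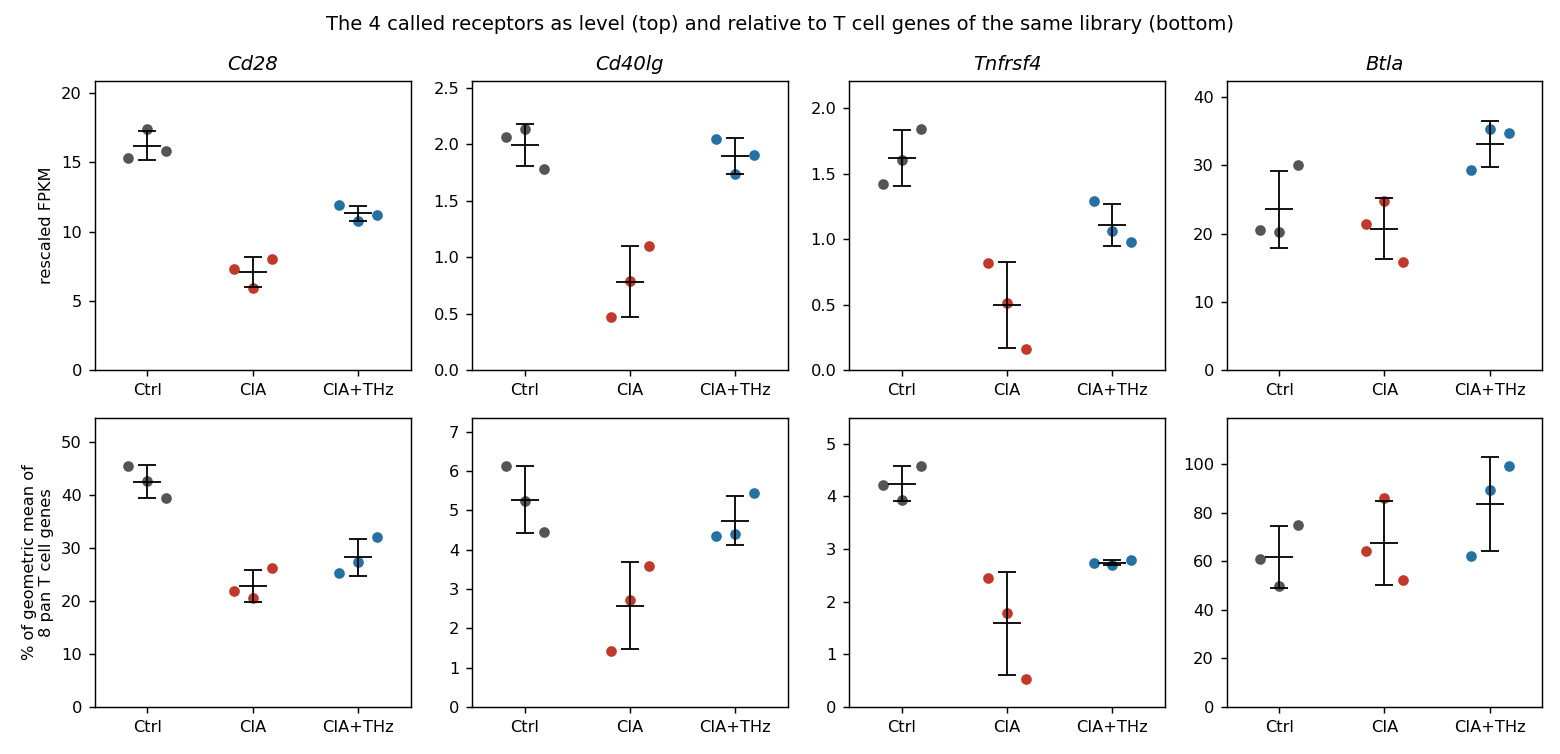
Rescaled FPKM (top) and the percentage of the geometric mean of 8 pan T cell genes in the same library (bottom) of Cd28, Cd40lg, Tnfrsf4 and Btla, with points for libraries and bars for mean ± SD (n = 3); all vertical axes start at 0. In the bottom panels the CIA libraries stay below Ctrl for Cd28, Cd40lg and Tnfrsf4, and the CIA and CIA+THz libraries overlap for Cd28 and Btla.

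Marker genes of other blood cells also differed between the groups, and their part in the receptor results was not tested. Of all genes tested, 4.25% were called lower and 4.79% higher in CIA against Ctrl, and 1.6% lower and 2.94% higher in CIA+THz against CIA. Of 7 NK cell genes, 4 were called lower in CIA against Ctrl and 2 higher in CIA+THz against CIA, and their summed rescaled FPKM ranged over 142 to 184 for Ctrl, 50.2 to 114 for CIA and 92.9 to 147 for CIA+THz. With 1 library left out, the 2 higher calls, Klre1 and Prf1, were kept in 1 and 2 of 6 fits. In CIA against Ctrl, Ncr1 and Gzma kept their calls in 2 and 3 of 6 fits, and Klre1 and Prf1 in 6 of 6. Of 8 monocyte genes, 5 were called higher in CIA, and the sums were 2846 to 3161, 4982 to 5563 and 3297 to 3551. Lyz2 made up most of these sums, with means of 2717, 4715 and 2963 in Ctrl, CIA and CIA+THz. Of the 8, 1 was called lower in CIA+THz against CIA. In CIA+THz against Ctrl, 4 were called higher, beside 4.64% of all genes, with 7 values above 0 and 1 below. The neutrophil sums were 12303 to 20861, 14485 to 18982 and 10600.2 to 12026, with 3 of 10 genes higher and 1 lower in CIA and 4 lower in CIA+THz against CIA. Of the erythroid and platelet lists, 0 genes were called by limma in CIA against Ctrl or in CIA+THz against CIA. The erythroid sums were 69067 to 103589, 87100.3 to 97815 and 47419 to 65410.2, and the platelet sums 3797 to 4592, 3637 to 4500.5 and 3038 to 3669. No gene of these lists was at 0 in all libraries. Of 5 regulatory T cell genes, cells in which Ctla4, Icos and Tnfrsf4 are high, Foxp3 (0.87) and Lrrc32 (1.00) were called higher in CIA against Ctrl and Ikzf4 (3.01) in CIA+THz against CIA. The list did not move one way: Ikzf4 (-1.30) and Ikzf2 (-0.18) had values below 0 in CIA against Ctrl, and Foxp3 (-0.03), Il2ra (-0.17) and Lrrc32 (-0.24) in CIA+THz against CIA, with none of these called. Ikzf4 was measured at 0.375, 0 and 2.44 in Ctrl, 0, 0.701 and 0 in CIA and 2.34, 1.04 and 1.38 in CIA+THz. With CIA libraries 1 and 3 at 0, the size of its rise rests on the constant added before the logarithm. The CIA+THz libraries were also the deepest, and the part of depth in this call was not tested. Foxp3 was measured at 3.12, 1.94 and 2.64 in Ctrl, 3.57, 5.30 and 5.50 in CIA and 4.76, 3.91 and 5.28 in CIA+THz, so both arthritic groups lay above Ctrl while Ctla4 and Tnfrsf4 lay below it. Foxp3 in CIA against Ctrl lost its call without Ctrl library 2 (0.69), CIA library 2 (0.79) or CIA library 3 (0.76). Of 6 genes of naive T cells, only Il7r was called lower in CIA (-0.87, adjusted p = 0.0461 by limma), as was Cd28. In CIA+THz against CIA, 0 of these 6 were called, with 5 values above 0 and 1 below. Their median there was 0.51, beside 0.40 for the receptors. Il7r was at 0.666 in that comparison (adjusted p = 0.172 by limma), just short of the fold limit.

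**Figure D4:**
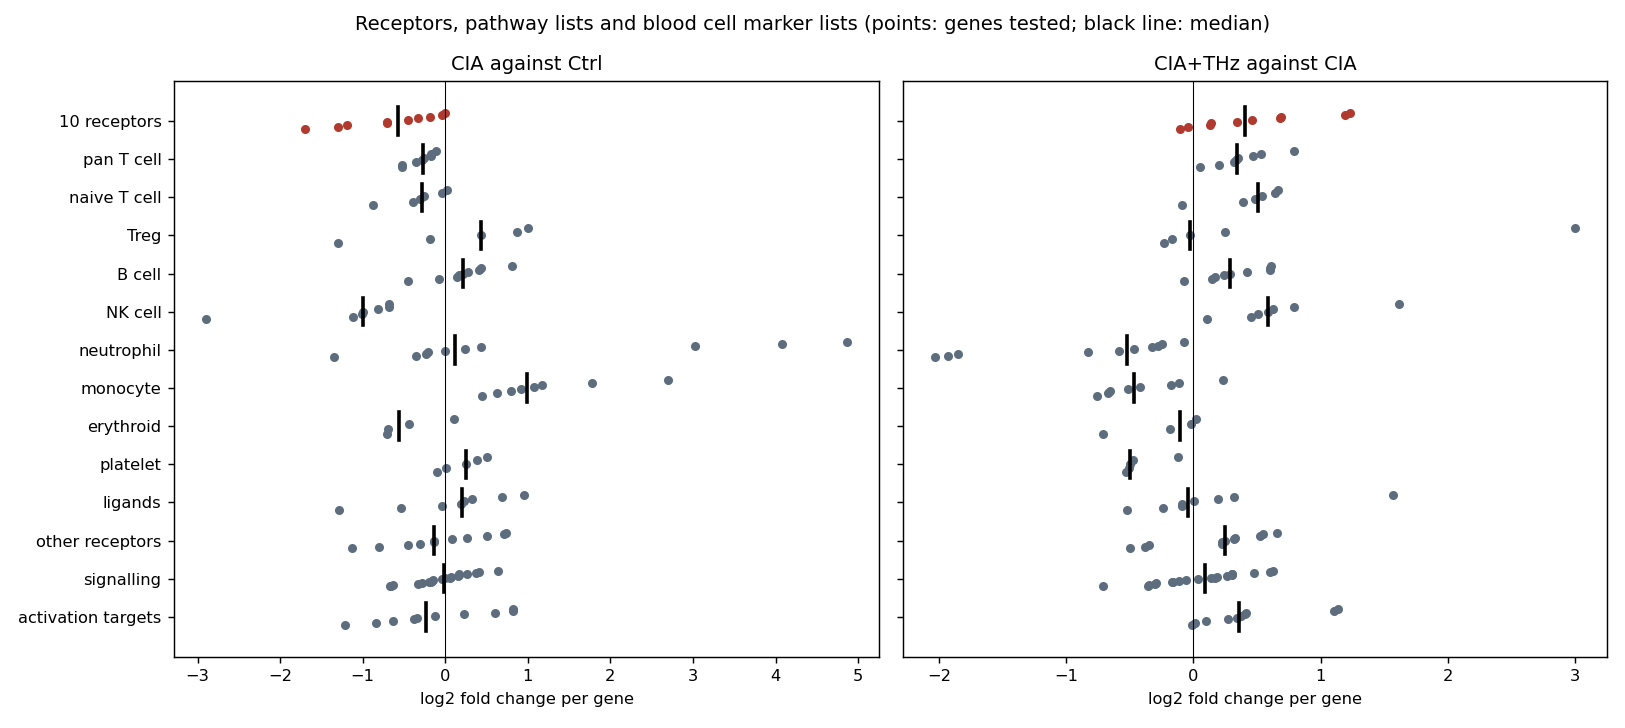
Log2 fold change (horizontal axis) of every tested gene of the 10 receptors (red), the pathway lists and the blood cell marker lists, in CIA against Ctrl (left) and CIA+THz against CIA (right); points are genes and black lines are medians. The receptor median is -0.58 on the left and 0.40 on the right, beside pan T cell medians of -0.27 and 0.34. The naive T cell medians are -0.28 and 0.51.

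The ligands of these receptors showed another pattern. Of 12 ligand genes, 8 were tested, Cd70 and Fgl1 (ligands of CD27 and LAG-3) were listed at 0 in all libraries, and Tnfsf4 and Tnfsf9 were below the filter. Cd80, a ligand shared by CD28 and CTLA-4, was called lower in CIA against Ctrl (-1.29, adjusted p = 0.123) and in CIA+THz against Ctrl (-1.53, adjusted p = 0.137) by limma. It was measured at 10.02, 5.55 and 6.28 in Ctrl, 2.17, 2.73 and 3.80 in CIA and 3.40, 2.88 and 1.36 in CIA+THz, and the Ctrl libraries lay above all others. Cd40, the receptor of CD40 ligand on B cells and myeloid cells, was called higher in CIA against Ctrl (0.95, adjusted p = 0.200) and in CIA+THz against Ctrl (0.86, adjusted p = 0.172), the opposite sign to Cd40lg in CIA. Lgals3, a ligand of LAG-3, was called higher in CIA (0.68, adjusted p = 0.0675). None of the 8 was called in CIA+THz against CIA, and the median there was -0.04. With 1 library left out, both calls of Cd80 held in 6 of 6 fits. Cd40 in CIA against Ctrl lost its call without Ctrl library 1, Ctrl library 2 or CIA library 1, with values of 0.70 and above, and in CIA+THz against Ctrl without Ctrl library 2 or CIA+THz library 2, with values of 0.62 and above. Lgals3 lost its call without Ctrl library 3 (0.58) or CIA library 1 (0.65).

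Among 11 other costimulatory and inhibitory receptors tested, Cd226, an activating receptor of T cells, NK cells and platelets, was called lower in CIA against Ctrl, with a log2 fold change of -1.13 (adjusted p = 0.0472 by limma). Cd226 was measured at 62.5, 65.9 and 50.4 in Ctrl, 29.4, 25.5 and 26.1 in CIA and 22.8, 34.2 and 40.3 in CIA+THz. Its CIA and CIA+THz libraries overlapped, both below Ctrl, whereas Cd28 differed between them. None of the 11 was called in CIA+THz against CIA, and in CIA+THz against Ctrl Tnfrsf25 (1.03) and Havcr2 (1.29) were called higher and Cd226 (-0.91) lower. Of 20 signalling genes downstream of these receptors, 0 were called by limma in any pair of groups. Malt1, which carries the signal to NF-kB, came closest in CIA+THz against CIA at 0.62 (adjusted p = 0.187). Of 10 activation target genes tested, Nr4a1 was called higher in CIA against Ctrl (0.82, adjusted p = 0.270) and, with Egr3, in CIA+THz against Ctrl (both 1.23). Il2 was listed at 0 in every library. With 1 library left out, both calls of Cd226 against Ctrl held in 6 of 6 fits, whereas Tnfrsf25, Havcr2 and Egr3 in CIA+THz against Ctrl kept theirs in 2, 1 and 1 of 6 fits and Nr4a1 in CIA against Ctrl in 2 of 6.

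The genes most like each receptor over the 9 libraries were ranked by Pearson's r of log2(rescaled FPKM + 0.1) among genes with a mean of at least 1, as a description. For Cd28 they were Pdcd10 (0.97), Prkcq (0.97), which encodes a kinase of the CD28 pathway, and Peli1 (0.97). For Cd40lg they were Tmem209, Cav1 and Alg2 (0.98, 0.98 and 0.97), for Tnfrsf4 Socs7, Ncoa2 and Trib2 (0.97, 0.96 and 0.96), and for Btla Ecsit, Tmem9 and Hyal2 (0.97, 0.94 and 0.93). The nearest gene was C5ar2 (0.94) for Ctla4, Msto1 (0.97) for Icos, Gm4737 (0.99) for Pdcd1, Rbms2 (0.95) for Tnfrsf9, Csnk1g3 (0.97) for Cd27 and Nudcd3 (0.97) for Lag3. The 9 points share 3 groups and the depth difference given above.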

How the data were processed

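Blood RNA of Ctrl, CIA and CIA+THz mice was sequenced in 9 paired-end libraries on an Illumina HiSeq instrument. The authors deposited FPKM, 1 column per library, for 20926 gene symbols. The submitters' processing notes name mm10, bcl2fastq 2.0, HISAT2, StringTie and DESeq2, with no roles. The annotation and the strand setting are not given in the sources used here.

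For scaling, 1 median-of-ratios factor per library was computed from the 10312 genes detected in every library (factors 0.847 to 1.24); relative to no scaling it shifted the difference of CIA+THz from CIA by -0.28 (log2). Genes were tested where their rescaled FPKM averaged 0.1 or more (12366 genes), on log2(rescaled FPKM + 0.1), by limma 3.58.1 with lmFit and a trended eBayes in R 4.3.3, on the 6 libraries of each pair, or all 9 for the F-test, and adjusted p is Benjamini-Hochberg over all genes tested. Relative depth was taken from the ratios of FPKM below 0.6 over 2660 genes. Coordinates are those of GENCODE M21. The scripts were tested on simulated libraries. All 10 receptors were named, and of each other list at most 4 genes past the criterion, or those with the smallest p; Foxp3, Lrrc32, Cd5, Il7r and Cd226 fall under this rule, Tnfrsf18 as a neighbouring gene. The lists of blood cells other than T cells are given by counts and sums, with a median for the B cell list. Of these lists, the called NK cell genes, Lyz2, Cd79a and Alas2 are also named. Not every gene under this rule is reported here. The receptors and lists were chosen with earlier results of these data known. Alternatives were other scalings, a pseudocount of 1, other filters, no trend, 1 fit of all libraries, the replicate number as a block, each library left out, the adjusted p, analysis of variance on unlogged values and, chosen after seeing the data, a GC content correction.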

Additional observations from a re-analysis of the deposited data

How the results depend on the processing

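With an adjusted p under 0.05 the count was 0 for CIA against Ctrl, 0 for CIA+THz against CIA and 1 across the 3 groups. For CIA+THz against CIA it was 5 for FPKM as deposited, which adds Tnfrsf4 (1.44) and Cd27 (0.74), 0 after scaling to the pan T cell genes and 1 (Cd40lg) with a pseudocount of 1, where Cd28 (0.62) and Btla (0.667) fell short of the fold limit. The share of all genes called there was 9.64%, 12.4% and 2.29% in the same order, beside 4.54% in the reported fit. FPKM as deposited gave 1 in CIA+THz against Ctrl (Btla, 0.81), with the median of all genes at 0.33 there and at 0.29 in CIA+THz against CIA. The GC content correction, chosen after seeing the data, took Cd28 (0.51) and Btla (0.52) below the fold limit in CIA+THz against CIA and brought Tnfrsf4 past it (1.25). Tnfrsf4 was also called there with no trend, with all 9 libraries in 1 fit and with the replicate number as a block. The cause of these changes was not tested.

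The replicate numbers pair no animals, and same-numbered libraries correlated between -0.05 and 0.03 in their deviations from the group means. With this block the number of receptors called rose from 3 to 4 in CIA+THz against CIA, while the share of all genes called went from 4.54% to 4.09%, and it changed no other call of a receptor. Leaving out 1 library gave 2 to 3 receptors for CIA against Ctrl, 2 to 4 for CIA+THz against CIA, 0 to 1 for CIA+THz against Ctrl (Btla without Ctrl library 3) and 3 to 5 across the 3 groups. The share of all genes called in these fits was 7.81% to 10.2%, 3.91% to 6.02%, 5.85% to 12% and 16.7% to 22.6%.

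Sign changes occurred only for differences that were not called under either setting. In CIA against Ctrl the value became positive for Lag3 as deposited (0.0091), scaled to pan T cell genes (0.24) and with a pseudocount of 1 (0.0027), for Icos under pan T scaling (0.26) and GC correction (0.17), and for Btla (0.11 and 0.089). From CIA to CIA+THz it became positive for Ctla4 (0.22) and Tnfrsf9 (0.14) as deposited, and negative for Icos (-0.24) and Pdcd1 (-0.13) under pan T scaling. Between CIA+THz and Ctrl it became positive for Cd40lg as deposited (0.23) and negative for Cd27 under pan T scaling (-0.063) and GC correction (-0.081). With 1 library left out, CIA against Ctrl ranged from -0.18 to 0.13 for Icos, -0.59 to 0.62 for Lag3, -0.33 to 0.0031 for Btla and -0.56 to 0.019 for Tnfrsf9. CIA+THz against CIA ranged from -0.026 to 0.28 for Icos, -0.46 to 0.12 for Tnfrsf9, -0.29 to 0.25 for Ctla4, -0.28 to 0.67 for Lag3 and -0.11 to 0.30 for Pdcd1. CIA+THz against Ctrl ranged from -0.12 to 0.15 for Cd27, -0.25 to 0.72 for Lag3 and -0.053 to 0.19 for Icos. Of the values of single receptors under all alternatives, 584 kept sign and side of the criterion, 36 changed sign, 25 no longer passed and 13 newly passed. Of the values of called genes of the other lists, 722 kept and 173 lost their call, with no change of sign. Genes below about 1 rescaled FPKM (Pdcd1, Lag3, Tnfrsf9 and, in CIA, Tnfrsf4 and Cd40lg) are limited by counting error that FPKM do not show.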

Other observations

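Ratios of a receptor to another gene of the same library, as printed here, do not depend on the scaling of that library. The permutation tests used the log2 ratio after adding 0.1 to both rescaled FPKM, which does depend on it. The 3 pairs given here, Cd28 to Icos, Cd40lg to Cd4 and Btla to Cd79a, were chosen after the values were seen, and 3 libraries against 3 cannot give an exact two-sided permutation p below 0.1. The ratio of Cd28 to Icos was 0.606, 0.788 and 0.755 in Ctrl, 0.417, 0.221 and 0.348 in CIA and 0.395, 0.500 and 0.505 in CIA+THz. Ctrl lay above both arthritic groups without overlap (exact permutation p = 0.1 each), while CIA+THz overlapped CIA (exact permutation p = 0.2). The ratio of Cd40lg to Cd4, the marker of helper T cells, was 0.0506, 0.0368 and 0.0297 in Ctrl, 0.00848, 0.0171 and 0.0285 in CIA and 0.0358, 0.0300 and 0.0421 in CIA+THz. CIA lay below both other groups, narrowly for CIA library 3 (exact permutation p = 0.1 each). The ratio of Btla to Cd79a, a B cell antigen receptor gene, was 0.108, 0.0856 and 0.130 in Ctrl, 0.0843, 0.0843 and 0.0734 in CIA and 0.117, 0.102 and 0.131 in CIA+THz. CIA again lay below both other groups (exact permutation p = 0.1 each). In CIA+THz against CIA, Cd79a had a log2 fold change of 0.17, beside a median of 0.29 for the 9 B cell genes. Ratios of Btla to the other B cell genes were not examined, so this ratio holds for Cd79a alone. Over the 9 tests the Benjamini-Hochberg adjusted p was at least 0.15.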
